A study of Mus musculus with 15 samples.

Results

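The Eph receptors and ephrins are a family of cell-surface receptors and ligands that cells use to sense the neighbours they touch. Here 10 of its genes were followed in mouse colon: the receptors Ephb2, Ephb3, Ephb4, Ephb6, Epha1 and Epha2, and the ligands Efnb1, Efnb2, Efna1 and Efna4. They were taken by gene symbol from a table of 22063 genes, and all 10 were found. The same table holds 22 genes of the family in all. RNA was sequenced from the colon of C57BL/6 mice of WT genotype in 15 libraries, 5 per group. The control group (labelled K) had the treatment label Control and is called the blank control in the series' design. The model group (labelled M) received AOM/DSS, the carcinogen azoxymethane together with dextran sulfate sodium, which injures the colon epithelium. The WMW-H group (labelled G) is the treated group of this colorectal cancer model, and its treatment label names WMW-H alone. The ages, the sex, the doses, the schedule and what the letter H stands for are not given in the sources used here.

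Eph receptors are receptor tyrosine kinases, and ephrins are held in the membrane of the adjacent cell, ephrin-A proteins by a lipid anchor and ephrin-B proteins by a transmembrane segment. Binding therefore needs contact between cells and can signal into both of them, most often as repulsion or sorting. In the intestinal crypt, EphB receptors are high near the base, where Wnt signalling through beta-catenin and TCF is active, ephrin-B ligands are higher toward the surface, and the opposed gradients keep proliferating and differentiated cells in their places. Ephb4 and Efnb2 are also known as the receptor and ligand of veins and arteries.

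Before the values, the DNA in front of 3 of the genes is shown, because apart from Ephb6 these are among the family members whose RNA differed most between groups. Each line holds the 250 bases that end at the RefSeq gene start (table of build GRCm38.p6), 5′ to 3′ on the gene's own strand. They are chr5:137349859-137350108 (+) for Ephb4, chr4:141300971-141301220 (+) for Epha2 and chr3:89338029-89338278 (-) for Efna4. Capitals mark 1 form of the core TCF letters, CTTTGA, or TCAAAG for the other strand. These are the same letters read on opposite strands. No other form of the core and no other motif was searched, so lower case does not mean that other forms are absent.
Ephb4: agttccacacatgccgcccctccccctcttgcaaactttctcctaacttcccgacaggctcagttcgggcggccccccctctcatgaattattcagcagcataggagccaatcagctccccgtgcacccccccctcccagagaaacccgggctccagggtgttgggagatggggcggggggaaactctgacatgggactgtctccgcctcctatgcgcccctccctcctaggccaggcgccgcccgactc
Epha2: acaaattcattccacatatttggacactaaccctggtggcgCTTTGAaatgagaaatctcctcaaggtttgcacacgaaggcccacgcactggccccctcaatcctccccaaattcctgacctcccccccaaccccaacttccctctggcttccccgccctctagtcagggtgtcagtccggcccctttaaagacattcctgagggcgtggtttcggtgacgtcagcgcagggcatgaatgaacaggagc
Efna4: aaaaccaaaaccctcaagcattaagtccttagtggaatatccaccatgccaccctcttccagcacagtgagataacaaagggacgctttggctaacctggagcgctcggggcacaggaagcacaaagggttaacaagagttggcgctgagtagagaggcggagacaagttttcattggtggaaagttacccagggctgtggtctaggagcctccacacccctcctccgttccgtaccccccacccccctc
All 10 genes had RefSeq promoters, 11 windows in total. The letters were present in 1 of the 11 windows (9.1%), that of Epha2, where the match begins at position -209 relative to the start. Among all 32851 promoter windows of that length, 4544 (13.8%) held them. Of 17 windows of known Wnt target genes, 3 did (17.6%). A match of letters is a description of the sequence and not a binding site, and these windows leave out distant enhancers. The windows of Ephb2, Ephb3 and Ephb6 overlap the annotated extent of their genes and are not printed.

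The values are FPKM, the number of fragments per kilobase of a transcript relative to the depth of the library, so levels can be set side by side between genes. The depth read from the steps of low values was 16300000 to 21100000 fragments per library, at which 1 FPKM of a 3 kb transcript stands for 48.9 to 63.3 fragments. Libraries correlated at 0.992 to 0.995 within groups and 0.939 to 0.972 between groups, and WMW-H replicate 3 stood apart from the others on the third principal component. The labels name colon epithelial cells, and the epithelial marker genes were high, summing over 10 genes to 6792 to 6887 FPKM in control against 6878 to 6987 in model and 5698 to 5972 in WMW-H. No isolation step is described, and markers of other tissue were present. The 7 smooth muscle genes summed to 2014 to 2133 FPKM over all libraries. The 10 exocrine pancreas genes summed to 22011 to 22637 FPKM in control against 5011 to 5122 in model and 8801 to 9344 in WMW-H. The 5 seminal vesicle genes found summed to 2489 to 2626 FPKM in model and at most 4.15 elsewhere. In such bulk RNA, fewer cells of a type and less RNA per cell cannot be told apart. The labels call the libraries replicates without saying that each came from a separate mouse, so the p-values measure only the spread between these libraries.

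In the AOM/DSS model, 8 of the 10 genes rose and Epha1 fell, while Efnb1 was not called. These shares have to be read against a background in which 66.1% of all tested genes were called, 45.5% as higher and 20.6% as lower. In WMW-H, 8 fell from their model level, against a background of 66.8% called and 40.9% lower. The size of these changes differed widely. Ephb6 went from the lowest of the 10 in control, 0.611 ± 0.15 FPKM (SD, n = 5), to 13.6 ± 0.73 in model and 2.24 ± 0.19 in WMW-H. The other 9 genes changed by less than 1 on the log2 scale in every comparison. The changes were tested with limma on log2(FPKM + 1), adjusted over the 12917 genes that reached 1 FPKM in 5 or more libraries, and a gene is called where the adjusted p is under 0.05. Adding 1 before the log understates the change of low genes.

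**Figure D1:**
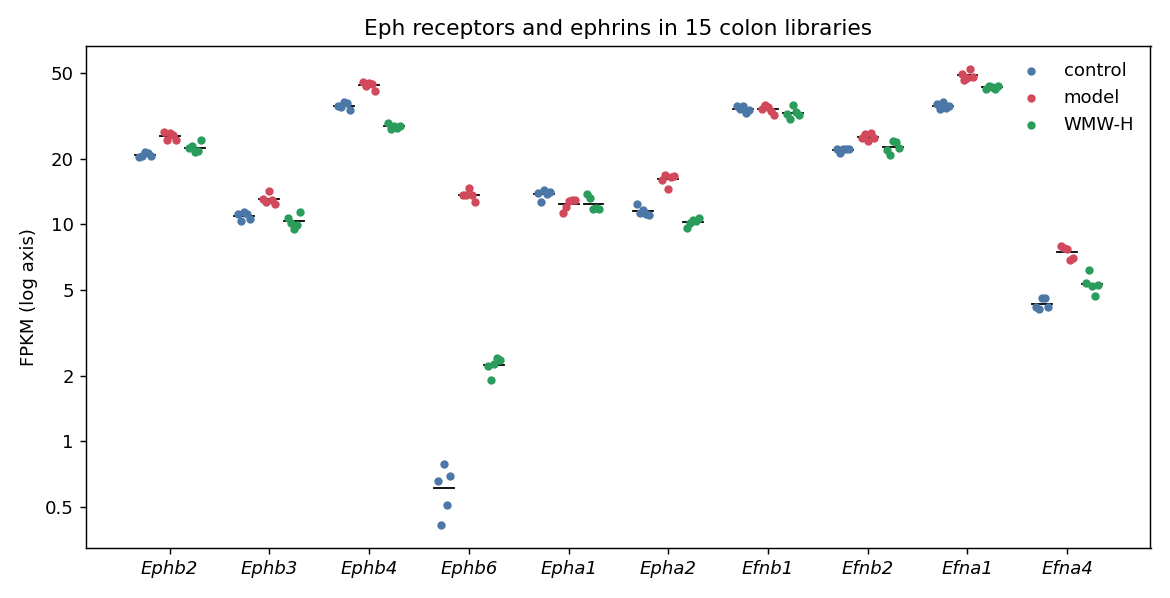
FPKM of the 10 Eph receptor and ephrin genes on a log axis, with 1 point per library and a line at each group mean. Ephb6 spans 0.412 to 14.7 FPKM across the 15 libraries, while each other gene keeps its groups close together.

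In control colon the most abundant members were Ephb4, Efna1 and Efnb1, whose libraries overlapped each other at 32.6 to 36.6 FPKM. Efnb2 and Ephb2 followed at about the same level, then Epha1, then Epha2 together with Ephb3, then Efna4 and last Ephb6. In model, Efna1 and Ephb4 stood above Efnb1 without overlap. There, Ephb6 had reached the level of Epha2, Ephb3 and Epha1, with which its libraries overlapped, and Efna4 was the lowest. In WMW-H, Efna1 led again, followed by Efnb1 and Ephb4, and Ephb6 was once more the lowest. Replicates were close: the coefficient of variation within a group was 1.72% to 9.93% for all members but Ephb6, which had 24.3% in control, where it lay under 1 FPKM.

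Among the EphB receptors, Ephb2 and Ephb3 are the crypt receptors, Ephb3 being also typical of Paneth cells. Ephb2 (ENSMUSG00000028664) measured 20.4, 20.6, 21.6, 21.4 and 20.8 FPKM in control replicates 1 to 5. It measured 26.6, 24.5, 26.4, 25.8 and 24.5 FPKM in model. It measured 22.4, 22.9, 21.5, 21.8 and 24.5 FPKM in WMW-H. All model libraries lay above all control libraries, and above all WMW-H libraries by the narrowest margin, 24.459 FPKM in the lowest model library against 24.456 in WMW-H replicate 5. The log2 change was 0.27 (SE 0.038) in model versus control, with a limma adjusted p of 6.97e-06. It was -0.17 in WMW-H versus model (limma adjusted p = 0.000815) and 0.10 in WMW-H versus control (limma adjusted p = 0.0259), where the libraries overlapped. After quantile normalization the first of these shrank to 0.14 and the second to -0.09, both still called. The last was not called with size factors (limma adjusted p = 0.222) or quantile normalization (0.220), nor without control replicate 1 (0.0596), control replicate 2 (0.0525), WMW-H replicate 2 (0.0504) or WMW-H replicate 5 (0.0788).

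Ephb3 (ENSMUSG00000005958) lay well below Ephb2 in level and had a pattern of the same kind between control and model. The control libraries measured 11.2, 10.3, 11.4, 11.2 and 10.6 FPKM. The model libraries measured 13.1, 12.7, 14.3, 12.9 and 12.4 FPKM. The WMW-H libraries measured 10.7, 10.2, 9.56, 9.91 and 11.4 FPKM. Model stood above both other groups in every library, and control and WMW-H overlapped. Ephb3 rose by 0.24 on the log2 scale in model versus control (SE 0.050, limma adjusted p = 0.000487) and fell by 0.31 in WMW-H versus model (limma adjusted p = 3.58e-05). The rise was lost with quantile normalization (log2 change 0.08, limma adjusted p = 0.138). Between WMW-H and control the log2 change was -0.07 (limma adjusted p = 0.220), and it was called lower with size factors (0.0423) and quantile normalization (0.0184). The 7 Paneth cell genes, lysozyme and alpha-defensins among them, summed to 72.4 to 75.5 FPKM in control against 764 to 821 in model and 291 to 312 in WMW-H. That sum moved in the same order as Ephb2 but over a much wider range. Most of its control value was Itln1, a gene singled out after its values were seen. Itln1 had means of 66.6 FPKM in control, 109 with AOM/DSS and 64.7 with WMW-H, the order of Ephb3. In control, 5 of the 7 genes had a mean under 1 FPKM. WMW-H versus control gave 5 of the 7 as higher and 0 as lower. The part of Paneth cells in the Ephb2 and Ephb3 values was not tested.

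Ephb4 (ENSMUSG00000029710), known from veins and also made by epithelium, was the most abundant EphB receptor in every group. It measured 35.3, 34.6, 36.6, 36.2 and 33.6 FPKM in control. It measured 45.3, 43.6, 44.6, 44.4 and 41.2 FPKM in model. It measured 29.4, 27.4, 28.5, 27.8 and 28.5 FPKM in WMW-H. The 3 groups did not overlap, and WMW-H lay below control as well as below model. The log2 change was 0.31 in model versus control (SE 0.032, limma adjusted p = 2.73e-07), or 0.19 with size factors and still called. In WMW-H versus model it was -0.61 (limma adjusted p = 4.84e-11), and 90.7% of tested genes had a smaller change. In WMW-H versus control it was -0.31 (limma adjusted p = 4.05e-07). The 12 endothelial genes summed to 124 to 125 FPKM in control against 154 to 162 in model and 140 to 147 in WMW-H. Pecam1, an adhesion protein of endothelium, was at 18.0, 25.4 and 23.9 FPKM in the same order of groups. Single vessel genes, chosen after their values were seen, differed in order. The means of Tie1 (5.58, 7.31 and 5.20 FPKM) and Plvap (46.4, 46.8 and 43.9 FPKM) were highest in model and lowest in WMW-H. Neither was called between WMW-H and control (limma adjusted p = 0.237 and 0.159), and Plvap was not called in any comparison. The means of Kdr (5.37, 6.82 and 7.70 FPKM), Tek (2.43, 2.87 and 4.08 FPKM) and Emcn (5.42, 5.25 and 6.91 FPKM) were highest in WMW-H. Of the 12 endothelial genes, 10 were higher and 0 lower in model than in control (45.5% and 20.6% of all genes). In WMW-H versus model 3 were higher and 6 lower (25.9% and 40.9% of all genes). In WMW-H versus control 9 were higher and 0 lower (35.4% and 24.1% of all genes). The 4 venous genes summed to 7.69 to 10.5 FPKM in control, 11.6 to 15.001 with AOM/DSS and 12.2 to 14.8 with WMW-H. Of the 10 epithelial markers, 5 were higher and 4 lower in model than in control (45.5% and 20.6% of all genes). In WMW-H versus model 2 were higher and 7 lower (25.9% and 40.9% of all genes). In WMW-H versus control 8 were lower and 2 higher (24.1% and 35.4% of all genes). The median log2 change of these markers in WMW-H versus control was -0.28 against 0.05 for all genes. The 2 higher ones in that comparison were the adhesion proteins Epcam (733, 825 and 878 FPKM) and Cdh1 (222, 304 and 268 FPKM). The part of either cell type in the Ephb4 values was not tested.

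Ephb6 (ENSMUSG00000029869) encodes a receptor whose kinase domain is inactive and which acts together with other Eph receptors; it is known from T cells and epithelium. The control libraries measured 0.654, 0.412, 0.784, 0.511 and 0.695 FPKM. The model libraries measured 13.7, 13.6, 14.7, 13.6 and 12.6 FPKM. The WMW-H libraries measured 2.23, 1.92, 2.27, 2.42 and 2.37 FPKM. The 3 groups were far apart with no overlap. By the ratio of mean FPKM, model was 22.3-fold above control, WMW-H was 6.08-fold below model and still 3.67-fold above control. The log2 changes were 3.19 (SE 0.068, limma adjusted p = 1.07e-16), -2.18 (limma adjusted p = 6.13e-14) and 1.01 (limma adjusted p = 1.57e-09). With a pseudocount of 0.1 the last became 1.74. Among 12917 tested genes, the rise in model was the 60th largest, the fall in WMW-H versus model the 43rd largest, and the rise in WMW-H versus control the 216th largest. Ephb6 reached 1 FPKM in 10 libraries, all of model and WMW-H, so it entered the test only through groups where it was high and its direction against control was partly fixed by that filter. Its share of the summed EphB receptor FPKM was 0.899% in control against 14.2% in model and 3.53% in WMW-H, while that of Ephb4 was 52.0%, 45.6% and 44.5%.

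The gene lies between Prss2, a pancreatic trypsinogen, and Trpv6, an epithelial calcium channel, in the RefSeq annotation. These neighbours, and the genes named next for likeness, were chosen after their values were seen. Trpv6 was at 0.154 ± 0.045 FPKM in control against 3.22 ± 0.31 in model and 1.16 ± 0.23 in WMW-H (SD, n = 5). Prss2 went the other way, at 2437, 619 and 1192 FPKM. Over the 15 libraries, the genes whose log2 values followed Ephb6 most closely were Robo1, a guidance receptor (Pearson r = 0.998), Rnf43, a ubiquitin ligase that removes Wnt receptors (r = 0.998), and Tbx3, a transcription factor (r = 0.997). The 15 points fall into 3 separate groups, and 1254 genes had r over 0.9 with Ephb6. Of 11 tested T cell genes, 2 were higher and 6 lower in model than in control (45.5% and 20.6% of all genes). The higher ones were Cd4 (4.12 to 6.25 FPKM) and Thy1 (13.8 to 17.1 FPKM), and Cd8a was among the lower (3.59 to 1.18 FPKM). The 12 T cell genes listed summed to 47.7 to 52.5 FPKM in control against 44.5 to 48.8 in model and 39.6 to 42.0 in WMW-H. Seminal vesicle genes were high in the model libraries alone, summing to 2489 to 2626 FPKM there and at most 4.15 in WMW-H. The 10 squamous epithelium genes summed to 0.801 to 1.79, 11.7 to 14.4 and 3.27 to 4.69 FPKM in control, model and WMW-H. Krt14 was the highest of them in model, at 6.36 FPKM. Of the 10, 6 had a mean under 1 FPKM in model, Krt5 (0.137) and Trp63 (0.032) among them. The part of T cells or of either tissue in the Ephb6 values was not tested.

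A list of 16 known Wnt target genes moved in the same direction as Ephb6. All 16 rose in model, where 45.5% of all genes did, with a median log2 change of 1.68 against 0.12 for all genes. Of the 16, 4 had a mean under 1 FPKM in control, Notum among them. These passed the filter through the other groups, so their direction against control was partly fixed by it. In WMW-H versus model 15 of the 16 fell, where 40.9% of all genes did. In WMW-H 15 were above control, where 35.4% of all genes were. Axin2, a feedback inhibitor of the pathway, was at 14.2 FPKM in control against 47.4 in model and 19.6 in WMW-H. Lgr5, a stem cell receptor, was at 1.82, 6.37 and 3.60 FPKM. These 2 genes were chosen after their values were seen. The smallest p-values in model belonged to the secreted inhibitor Notum (0.157 to 47.4 FPKM, with 14.1 in WMW-H) and the intracellular inhibitor Nkd1 (6.30 to 139, with 43.6 in WMW-H). Ephb2 and Ephb3 changed by 0.27 and 0.24 in model, far less than the list's median. The list was uneven, as 2 further genes chosen after their values were seen show. Cd44 was at 23.2 FPKM in control against 26.4 in model and 25.5 in WMW-H. Ascl2 was at 3.88, 7.42 and 3.33 FPKM.

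**Figure D2:**
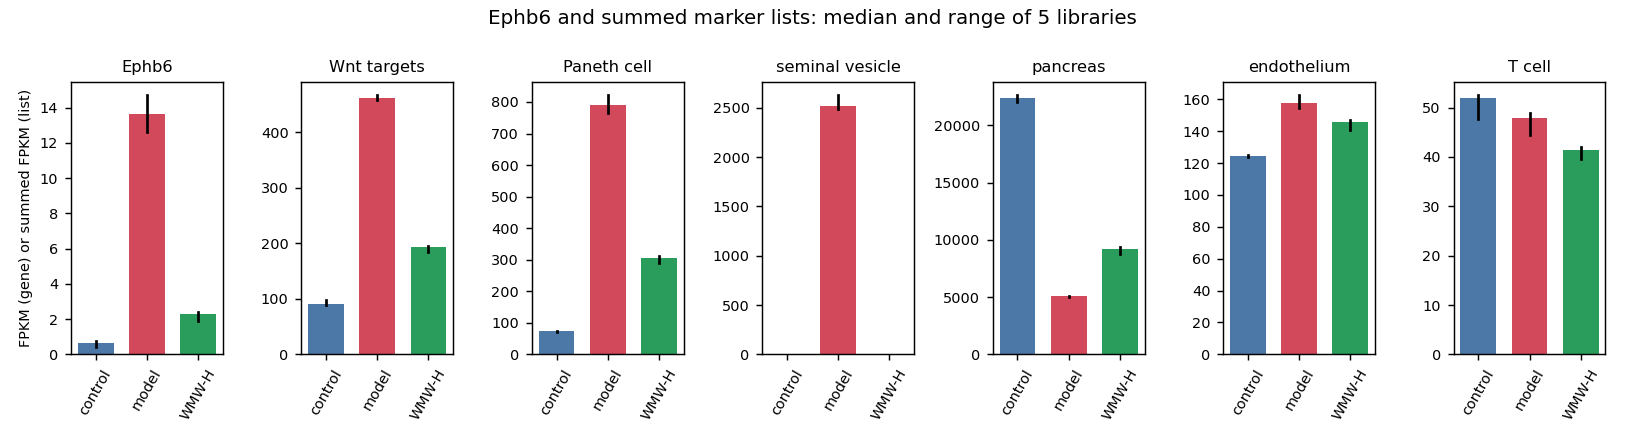
Ephb6 (FPKM) and the summed FPKM of 6 marker lists; bars are the median of 5 libraries and lines their range, each panel with its own axis from 0. Ephb6, the Wnt targets and the Paneth cell genes are lowest in control and highest in model, the seminal vesicle genes are at 2489 to 2626 in model alone, and the pancreas genes are highest in control.

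Of the EphA receptors, Epha2, which binds ephrin-A1 and is made by many epithelia, moved most. The control libraries measured 12.4, 11.2, 11.7, 11.1 and 11.01 FPKM. The model libraries measured 15.9, 16.9, 14.6, 16.5 and 16.6 FPKM. The WMW-H libraries measured 9.62, 10.1, 10.4, 10.3 and 10.7 FPKM. As for Ephb4, the 3 groups did not overlap and WMW-H was the lowest. Epha2 (ENSMUSG00000006445) rose by 0.45 on the log2 scale in model versus control (SE 0.045, limma adjusted p = 1.28e-07). It fell by 0.61 in WMW-H versus model (limma adjusted p = 4.13e-09), a change larger than that of 90.4% of tested genes. It fell by 0.15 in WMW-H versus control (limma adjusted p = 0.00846). It is the member whose promoter window, printed above, holds the letters CTTTGA, the only form searched. Of all promoter windows, 13.8% held these letters, and their part in the Epha2 values was not tested.

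Epha1 (ENSMUSG00000029859), the first Eph receptor described and typical of epithelium, was lower in model. Control measured 14.0, 12.7, 14.4, 13.8 and 14.1 FPKM. Model measured 11.3, 12.02, 12.8, 12.9 and 13.01 FPKM. WMW-H measured 13.9, 13.2, 11.7, 11.9 and 11.7 FPKM. All 3 groups overlapped. The log2 change was -0.14 in model versus control (SE 0.054, limma adjusted p = 0.0284) and -0.14 in WMW-H versus control (limma adjusted p = 0.0384). It was 0.01 in WMW-H versus model (limma adjusted p = 0.931). The first call was lost under 8 of 26 alternative settings. Among these were TPM (log2 change -0.10, limma adjusted p = 0.137) and the fits without control replicates 1, 3 or 5 or model replicates 1 or 2. With quantile normalization the change was -0.29. The call in WMW-H versus control was lost under 11 of 26 settings, with limma adjusted p from 0.00456 to 0.0934. Epha1 overlaps the gene of zyxin, Zyx, in the RefSeq annotation. Strand use in counting is not given in the sources used here, and reads of the pair may not be separated. Zyx was at 55.7 ± 5.2 FPKM in control against 68.7 ± 2.0 in model and 49.3 ± 2.8 in WMW-H (SD, n = 5), an order unlike that of Epha1.

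The ephrin-B ligands, partners of the EphB receptors, changed little. Efnb1 (ENSMUSG00000031217) measured 35.3, 34.2, 35.1, 32.6 and 33.6 FPKM in control. It measured 34.1, 35.7, 34.6, 33.4 and 32.0 FPKM in model. It measured 32.2, 30.7, 35.5, 33.0 and 31.9 FPKM in WMW-H. All groups overlapped. The log2 change was -0.01 in model versus control (SE 0.039, limma adjusted p = 0.871), -0.05 in WMW-H versus model (limma adjusted p = 0.223) and -0.06 in WMW-H versus control (limma adjusted p = 0.175). A fall in model was called with size factors (limma adjusted p = 0.0143) and quantile normalization (0.0162). Without WMW-H replicate 3, which had its highest WMW-H value, Efnb1 was called lower in WMW-H than in model (limma adjusted p = 0.0446) and in control (0.0331). It was also called lower with TPM in WMW-H versus model (limma adjusted p = 0.0218) and with size factors in WMW-H versus control (0.0259).

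Efnb2 (ENSMUSG00000001300), the ligand also known from arteries, measured 22.3, 21.4, 22.3, 22.3 and 22.2 FPKM in control. It measured 25.1, 26.2, 24.3, 26.2 and 25.0 FPKM in model. It measured 21.9, 20.8, 24.2, 24.0 and 22.5 FPKM in WMW-H. Model lay above both other groups without overlap, narrowly so against WMW-H, and WMW-H overlapped control. Efnb2 rose by 0.19 on the log2 scale in model versus control (SE 0.039, limma adjusted p = 0.000375) and fell by 0.16 in WMW-H versus model (limma adjusted p = 0.00198). Both calls were lost with size factors (limma adjusted p = 0.123 and 0.0619) and with quantile normalization (0.202 and 0.10). Between WMW-H and control the log2 change was 0.03 (limma adjusted p = 0.467). The 5 tested arterial markers all rose in model, where 45.5% of all genes did. Bmx, the other listed marker, did not pass the filter. It was lowest in model, at 0.327 FPKM against 0.875 in control and 0.807 in WMW-H. The 6 listed summed to 9.79 to 11.5 FPKM in control against 32.0 to 35.6 in model and 11.8 to 13.7 in WMW-H. Most of that sum in model was Sox17, a transcription factor also found outside vessels, at 1.302 FPKM in control against 18.3 in model and 2.66 in WMW-H. Dll4, a Notch ligand of arteries, was at 4.35, 6.49 and 3.99 FPKM. The part of vessel RNA in the Efnb2 values was not tested.

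The balance of crypt receptors to ephrin-B ligands was higher in model than in control. The FPKM of Ephb2 plus Ephb3 over that of Efnb1 plus Efnb2 was 0.567 ± 0.019 in control against 0.651 ± 0.034 in model and 0.598 ± 0.058 in WMW-H (SD, n = 5). Model and control libraries did not overlap (0.548 to 0.595 against 0.600 to 0.691), and WMW-H, at 0.521 to 0.659, overlapped both. Scaling of a whole library cancels in this ratio. Being built over members, it carries no test.

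**Figure D3:**
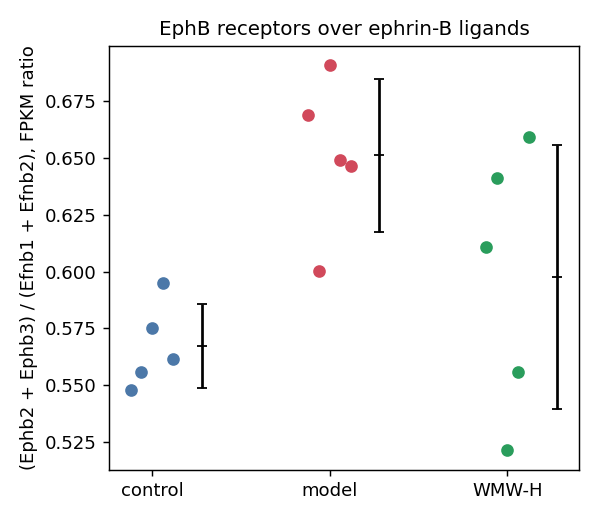
Ratio of summed receptor FPKM (Ephb2 and Ephb3) to summed ligand FPKM (Efnb1 and Efnb2), with 1 point per library and the mean with SD beside each group; the axis does not start at 0. The control libraries lie at 0.548 to 0.595, the model libraries at 0.600 to 0.691, and WMW-H spreads over both.

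Both ephrin-A ligands rose in model and kept part of the rise in WMW-H. Efna1 (ENSMUSG00000027954), an inflammation-responsive ligand of Epha2, measured 36.1, 33.9, 36.6, 34.3 and 35.2 FPKM in control. It measured 49.2, 46.3, 47.5, 52.1 and 47.6 FPKM in model. It measured 41.9, 43.4, 42.9, 42.1 and 43.6 FPKM in WMW-H. The 3 groups did not overlap, and WMW-H lay between the others. The log2 change was 0.45 in model versus control (SE 0.032, limma adjusted p = 1.83e-09) and -0.18 in WMW-H versus model (limma adjusted p = 0.000134), which became -0.09 with quantile normalization and was still called. It was 0.27 in WMW-H versus control (limma adjusted p = 1.64e-06).

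Efna4 (ENSMUSG00000028040), a less abundant ligand of the same class, had the largest relative rise after Ephb6. Control measured 4.14, 4.09, 4.56, 4.58 and 4.14 FPKM. Model measured 7.92, 7.76, 7.71, 6.83 and 7.03 FPKM. WMW-H measured 5.34, 6.13, 5.20, 4.67 and 5.23 FPKM. Every WMW-H library lay between the highest control and the lowest model library. Model was 1.73-fold above control by mean FPKM. The log2 change was 0.67 in model versus control (SE 0.061, limma adjusted p = 4.23e-08), larger than that of 88.3% of tested genes. It was -0.42 in WMW-H versus model (limma adjusted p = 1.20e-05) and 0.25 in WMW-H versus control (limma adjusted p = 0.00218). Efna1, Efna3 and Efna4 are adjacent genes in the RefSeq annotation, and Efna3 between them did not pass the test in any comparison, at 1.47, 1.45 and 1.37 FPKM.

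Counted together, 8 of the 10 members were higher and 1 lower in model than in control (45.5% and 20.6% of all tested genes). The libraries of 8 members did not overlap between these groups, as for 52.9% of all genes. The median member changed by 0.29 on the log2 scale and the median gene by 0.12. In WMW-H versus model 8 of 10 were lower, against 40.9% of all genes, and 8 did not overlap, against 51.2%, with a median of -0.24 against -0.07. In WMW-H versus control 7 were called, against 59.5% of all genes; 4 were higher, against 35.4%, and 3 lower, against 24.1%. There, 5 did not overlap, against 42.3%, and the median was -0.01 against 0.05. With so many genes called, a member count near these shares says little by itself. Each pair of comparisons shares a group of libraries, so they are not independent.

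The split of calls over all genes depended on the scale: 68.9% of genes called in model versus control were higher, which became 51.4% with size factors and 47.5% with quantile normalization. In WMW-H versus model the share was 38.8%, or 49.6% with quantile normalization, and in WMW-H versus control 59.5%, or 48.0%. Relative to the median gene, the model versus control changes were 3.07 for Ephb6, 0.55 for Efna4, 0.34 for Epha2, 0.33 for Efna1, 0.19 for Ephb4, 0.16 for Ephb2, 0.12 for Ephb3 and 0.07 for Efnb2. They were -0.13 for Efnb1 and -0.26 for Epha1. With size factors 7 members were higher and 2 lower in model, and with quantile normalization 6 and 2.

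**Figure D4:**
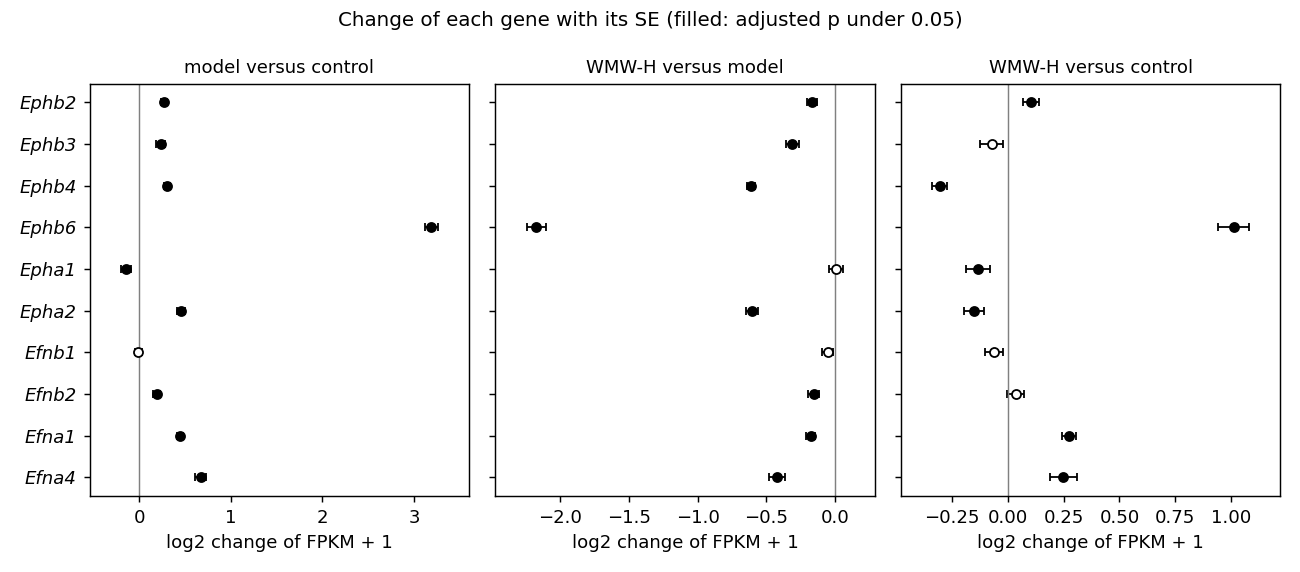
Log2 change of FPKM + 1 for each gene in the 3 comparisons, with its SE; filled points have a limma adjusted p under 0.05, and each panel has its own horizontal axis. Ephb6 stands at 3.19, -2.18 and 1.01, the other genes within 1 of zero.

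The members fell into 4 orders of level. Ephb6, Efna1 and Efna4 lay in WMW-H between control and model, clear of both, and Ephb2 lay there with libraries that overlapped control. Ephb4 and Epha2 went below control in WMW-H. Ephb3 and Efnb2 were not called different from control in WMW-H. Efnb1 was not called in any comparison, and Epha1 overlapped throughout.

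Of the other 12 family genes, 3 passed the filter, Epha4, Epha7 and Efna3. Epha4, a receptor that binds ligands of both classes, was at 1.81 ± 0.057 FPKM in control against 2.65 ± 0.29 in model and 2.26 ± 0.23 in WMW-H (SD, n = 5). It rose in model by 0.37 on the log2 scale (limma adjusted p = 7.82e-05) and in WMW-H versus control by 0.21 (limma adjusted p = 0.00991), the latter not called with quantile normalization (0.0915). Its log2 change in WMW-H versus model was -0.16 (limma adjusted p = 0.0354), a call lost with size factors (0.131) and quantile normalization (0.234), and without model replicates 1, 2 or 5 or WMW-H replicates 3, 4 or 5 in turn. Epha7 was at 1.32 ± 0.25, 0.790 ± 0.19 and 1.03 ± 0.091 FPKM (SD, n = 5) and fell in model by 0.38 (limma adjusted p = 0.00093). The remaining 9 (Ephb1, Epha3, Epha5, Epha6, Epha8, Epha10, Efnb3, Efna2 and Efna5) were low, at most 1.48 FPKM in any library, for Efna5.

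Eph and ephrin signals pass through exchange factors, adaptors, kinases and PDZ proteins, and 36 of 37 listed partners were tested. In model 18 rose and 7 fell, shares near the 45.5% and 20.6% of all genes, with a median log2 change of 0.10 against 0.12; with size factors the split was 10 and 10. In WMW-H versus model 8 rose and 19 fell (25.9% and 40.9% of all genes), or 10 and 12 with size factors. Grb7, an adaptor that binds EphB1 and other tyrosine kinases, had the smallest p: 34.2 FPKM in control against 61.4 in model and 36.3 in WMW-H, a log2 change of 0.83 and then -0.74 (limma adjusted p = 4.56e-14 and 5.87e-13). Src, a kinase downstream of many receptors, was at 41.7, 50.7 and 39.8 FPKM. The GTPases Rhoa (184, 217 and 198 FPKM) and Rac1 (162, 186 and 192 FPKM) rose in model by 0.23 and 0.19. Against most of the list, Vav3, an exchange factor, fell by 0.54 in model, from 4.47 to 2.77 FPKM (limma adjusted p = 7.09e-07), and was at 4.81 in WMW-H. Sdcbp, a PDZ protein that binds ephrin-B tails, was at 96.0, 79.6 and 121 FPKM.

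Proteases that cut Eph receptors or ephrins rose in model in 8 of 10 tested genes, where 45.5% of all genes did, with a median log2 change of 0.31 against 0.12. In WMW-H versus model 7 fell, where 40.9% of all genes did. Mmp9, a gelatinase, went from 1.09 to 16.7 FPKM and was at 3.77 in WMW-H. Mmp14, a membrane-bound protease that cuts EphA2, was at 30.3, 73.9 and 54.1 FPKM. Adam10, which sheds ephrins and cuts EphB receptors, was at 22.4, 30.9 and 29.3 FPKM, rising by 0.45 in model (limma adjusted p = 9.86e-09). In WMW-H versus model its log2 change was -0.07 (limma adjusted p = 0.081). Neutrophils are a known source of Mmp9, and 5 of 5 tested neutrophil genes also rose in model, where 45.5% of all genes did. Of these, S100a8, S100a9 and Csf3r lay under 1 FPKM in every control library (means of 0, 0.154 and 0.626). They passed the filter only through the other groups, which partly fixed their direction against control. The 7 neutrophil genes listed summed to 11.3 to 14.4 FPKM in control against 74.5 to 91.9 in model and 41.9 to 53.4 in WMW-H. The part of neutrophils in the protease values was not tested.

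Differentiated colonocytes are the cells of the crypt surface, where ephrin-B ligands are known to be high. Of their 12 genes, 10 fell in model, where 20.6% of all genes did, with a median log2 change of -0.39. Ceacam20 rose, from 55.5 to 64.8 FPKM. Efnb1 was not called in model, and Efnb2 rose, a call lost with size factors and quantile normalization. Slc51a had the smallest p of the list, at 38.5 FPKM in control against 14.9 in model and 36.1 in WMW-H. Guca2a, the guanylin hormone, went from 1739 to 921 FPKM, and Slc26a3, the chloride exchanger of surface cells, from 139 to 86.7. In WMW-H versus control 9 of 12 were lower, against 24.1% of all genes, and 1 was higher, against 35.4%. In WMW-H versus model 6 were higher and 6 lower (25.9% and 40.9% of all genes). The part of surface cells in the Efnb1 and Efnb2 values was not tested.

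By the likeness rule, the genes following Ephb2, Ephb3, Efnb2 and Efna1 most closely over the 15 libraries were found, as a description; the others besides Ephb6 were not examined. For Ephb2 they were Brd1, a chromatin reader (r = 0.957), Nbl1, a BMP antagonist (r = 0.955), and Itga6, an integrin that binds laminin (r = 0.950), with 334 genes over 0.9. For Ephb3 they were Zfp444 (r = 0.950), Gps1 (r = 0.947) and Klf16 (r = 0.944), with 132 genes over 0.9. For Efnb2 they were Mapk7 (r = 0.941), Erf (r = 0.924) and Ccdc120 (r = 0.923), with 13 genes over 0.9. For Efna1 they were Basp1 (r = 0.982), Trim29 (r = 0.980) and Cdh1, the adhesion protein E-cadherin (r = 0.980), with 844 genes over 0.9. The coefficients share the same 15 libraries in 3 groups, and of the 5 genes examined Efnb2 had the fewest others over 0.9.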

How the data were processed

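The authors deposited 1 table of FPKM values for 22063 genes in 15 libraries of mouse colon. Per the labels' protocols, polyadenylated RNA was made into NEBNext Ultra libraries and sequenced on a NovaSeq. Tools listed in the submitters' processing notes are RSEM, StringTie 1.3.1, HISAT2, Bowtie2 2.2.8 and fastp 0.18.0. Build, annotation, strand use and settings are not given in the sources used here. Depth (16300000 to 21100000 fragments per library) was read from the steps of low values in genes with 1 annotated transcript. Of these values, 90.1% came within 0.1 of a whole fragment. Genes with several transcripts were not used for this step, and no count test was run.

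The 12917 genes that reached 1 FPKM in 5 or more libraries were fitted as log2(FPKM + 1) with limma 3.58.1 in R 4.3.3, with 1 mean per group, all 15 libraries together, moderation with a trend, two-sided tests and Benjamini-Hochberg adjustment over all tested genes. The step was tested on simulated data. Alternatives covered the pseudocount, the filter, the scaling, the model and the left-out libraries. The 10 members, all of them named, and the gene lists were chosen with earlier results of these data known. Of each list up to 6 genes could be named, by smallest p in model versus control or by moving against the list; genes alike in pattern were taken by highest Pearson correlation. Promoter windows came from RefSeq (GRCm38.p6). Figures were drawn with matplotlib 3.10.9 in Python 3.11.15.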

Additional observations from a re-analysis of the deposited data

Results flagged for a closer look

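Of 30 sets of 5 libraries (10 genes in 3 groups), 1 held a library set apart from the others of its group: Efnb2 in control replicate 2, at 21.427 FPKM, where the next lowest control library was at 22.153. The gap took up 0.788 of the group's range, above the limit of 0.71 for 5 values. Chance alone sets apart about 1 in 20 such groups.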

How the results depend on the processing

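Over 26 alternatives, 8 to 9 of the 10 members were called in model versus control, 7 to 9 in WMW-H versus model and 5 to 8 in WMW-H versus control. Ephb4, Ephb6, Epha2, Efna1 and Efna4 passed the threshold in the same direction in all 26, in all 3 comparisons. Of the member results under alternatives, 728 kept direction and side of the threshold, 31 lost the call, 8 gained one and 13 changed sign. The changes of sign all concerned genes that were not called. Efnb1 in model versus control was 0.0414 with TPM and ran from -0.0253 to 0.0125 over the fits that left out 1 library; in WMW-H versus model it was 0.0122 with size factors and 0.0262 with quantile normalization. Epha1 in WMW-H versus model was -0.0446 with TPM and ran from -0.0301 to 0.0257 with 1 library left out. Efnb2 in WMW-H versus control was -0.0155 with size factors and -0.0176 with quantile normalization. The cause was not tested. The log2 ratio of receptors to ligands, -0.82, -0.62 and -0.75 in control, model and WMW-H, became -0.70, -0.41 and -0.53 for Ephb2 over Efnb1 alone.

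With the replicate number as a block, 8, 8 and 5 members were called; the calls lost were Epha1 in model versus control (limma adjusted p = 0.0571) and, in WMW-H versus control, Epha1 (0.0727) and Ephb2 (0.0520). The numbers did not pair the libraries: the deviations of 15 same-numbered pairs correlated at -0.047 to 0.030, with 1 best with its own number, against -0.065 to 0.059 for 60 other pairs.

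In control, Ephb6 lay under 1 FPKM and its coefficient of variation was 24.3%. The cause of that spread was not tested. The member calls that another scaling changed were those of Ephb2, Ephb3, Epha1, Efnb1 and Efnb2.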
